A study of Homo sapiens with 9 samples.

Results

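The 10 genes described here are those most often used to sort mammary epithelial cells into stem-like, luminal and basal states by their surface or by aldehyde dehydrogenase activity: CD44, CD24, EPCAM, PROM1 (CD133), ALDH1A1, ALDH1A3, PDPN, THY1 (CD90), MME (CD10) and NT5E (CD73). They were set by name, with earlier results of these data known, and are 10 of the 62666 genes of the deposited tables. For CD44 the 38 transcripts listed for its gene were read as well. After the filter on low counts 17910 genes were tested, and 8 of the 10 were among them. PROM1 and THY1 did not pass, with at most 2 counts and 1 count in any library.

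Polyadenylated RNA was sequenced from 3 human mammary epithelial cell lines, with 3 libraries per line. MCF10A is an immortalised, non-tumorigenic line. MCF10AT1, derived from it with activated HRAS, serves as the premalignant stage. MCF10Ca1a descends from the same lineage and forms tumours. MCF10A and MCF10Ca1a were grown with 5% horse serum and MCF10AT1 with 2.5%, so serum and line cannot be told apart in any comparison with MCF10AT1. All lines had the same DMEM/F12 additions, namely NaHCO3 (14 mM), insulin (10 µg/mL), glutamine (2 mM), epidermal growth factor (20 ng/mL), hydrocortisone (500 ng/mL) and cholera toxin (100 ng/mL). Each stage is 1 cell line, and no source says whether its 3 libraries come from separate cultures, so p-values measure the spread between these libraries, which may be technical.

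CD44 is a receptor for hyaluronan whose extracellular stem can be lengthened by alternatively spliced variant exons. CD24 is a small, heavily glycosylated protein held by a GPI anchor, and EPCAM is an epithelial adhesion molecule. In breast epithelium a high CD44 with a low CD24 is read as a stem-like or mesenchymal surface, EPCAM as luminal or epithelial, and MME, PDPN and THY1 as basal or myoepithelial. ALDH1A1 and ALDH1A3 oxidise retinaldehyde to retinoic acid and contribute to the activity read by the ALDEFLUOR assay, while NT5E makes adenosine from AMP at the cell surface.

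Library totals ran from 62.9 to 69.5 M estimated counts in MCF10A and MCF10AT1 and from 32.9 to 35.2 M in MCF10Ca1a. No pair of libraries was identical, and the root mean square distance in log2 CPM (counts scaled to the library total) was 0.16 to 0.25 within a line and 0.72 to 1.23 between lines. Of the keratins, KRT18 and KRT5 were seen in every line, while KRT14 and KRT19 differed between lines as given with the lists of mammary identity. The luminal keratin KRT18 stood at 347 ± 31.0 CPM (SD, n = 3) in MCF10A, its lowest line, and the basal keratin KRT5 at 686 ± 20.2 CPM in MCF10Ca1a, its lowest line. Of other cell types, the defining immune gene PTPRC had at most 2 counts, the endothelial gene CDH5 at most 1 and the fibroblast gene COL1A2 at most 1 in any library. The summed TPM (abundance scaled to transcript length and library total) of the 8 fibroblast markers was 52.7 to 67.4 in MCF10A and MCF10AT1 and 19.3 to 26.5 in MCF10Ca1a. That of 6 endothelial markers was 0.67 to 1.32 against 15.6 to 20.9, and of the 2 tested 1 rose and 1 fell at the malignant step. PECAM1 rose by a log2 change of 3.68 (adjusted p 7.27e-13), and KDR fell from 32, 23 and 25 counts in MCF10AT1 to 0, 0 and 1 in MCF10Ca1a (adjusted p 4.50e-06). That of 6 immune markers was 15.9 to 22.4 in MCF10A, 6.04 to 6.64 in MCF10AT1 and 30.4 to 33.4 in MCF10Ca1a, and CD68, a lysosomal protein of macrophages, rose by 3.37 at the malignant step (adjusted p 3.84e-12) while CD14 fell by 4.38. Of the 4 fibroblast markers tested 1 rose and 2 fell at each step, and 3 fell in MCF10Ca1a against MCF10A. The part of these marker levels in the results below was not tested. In these bulk samples fewer cells of a type and less RNA per cell cannot be told apart.

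Of the 8 tested markers, 7 passed an adjusted p of 0.05 in MCF10AT1 against MCF10A (edgeR quasi-likelihood test, Benjamini-Hochberg adjustment over all genes), 4 higher and 3 lower. In that comparison 61.6% of all genes tested passed, 29.8% higher and 31.8% lower. In MCF10Ca1a against MCF10AT1 5 passed, 2 higher and 3 lower, beside 78.4% of all genes (38.0% higher, 40.3% lower). In MCF10Ca1a against MCF10A 7 passed, 3 higher and 4 lower, beside 80.9% of all genes (39.0% higher, 41.9% lower). Most genes passed between these lines, so the number of markers that did sets them apart from no others. The median log2 change of the tested markers was 0.20, 0.12 and -0.36 in the 3 comparisons (0.05, 0.24 and -0.03 in log2(TPM + 1)), beside -0.00, -0.04 and -0.05 (-0.09, 0.19 and 0.10) over all genes tested. The share of higher genes among all calls was 48.4%, 48.5% and 48.2%, and 36.1%, 61.6% and 55.5% with limma on log2(TPM + 1).

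EPCAM and ALDH1A3 rose at both steps of the series and MME fell at both. PDPN was lost, and ALDH1A1 gained at a low level, at the first step. CD24 fell at the first step and did not pass at the second, and NT5E fell at the second step and did not pass at the first. Whether the steps of 1 gene differ from each other was not tested.

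**Figure D1:**
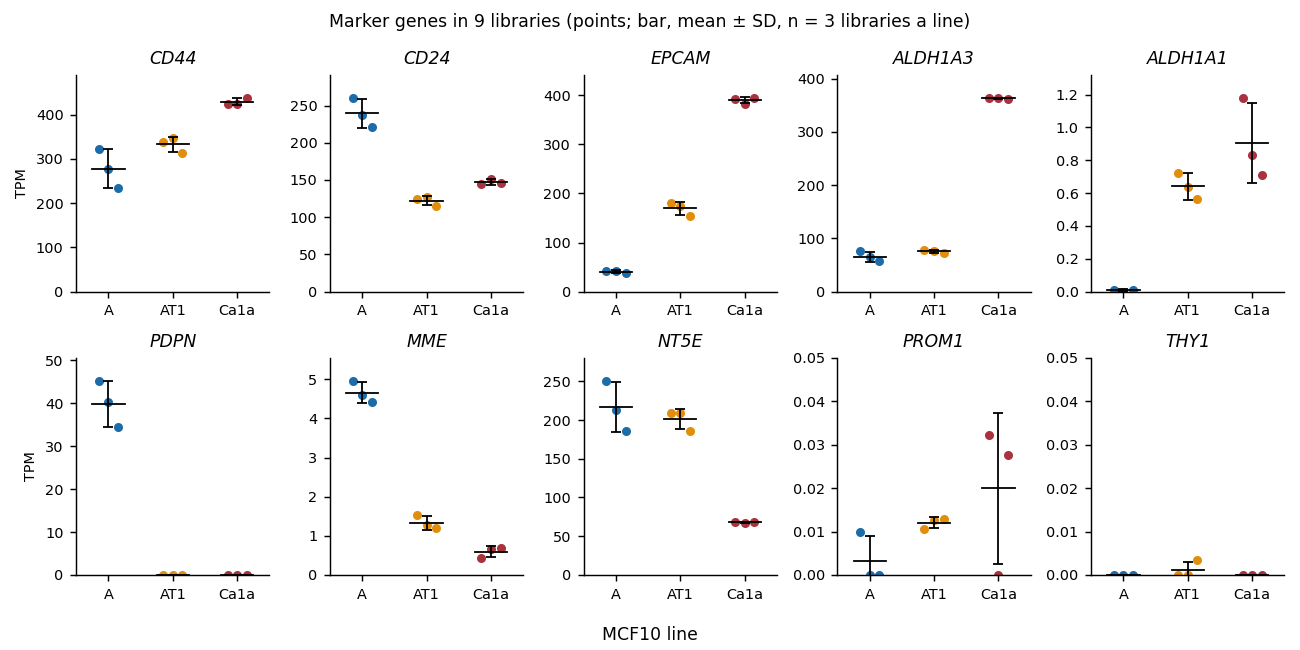
Level of each of the 10 marker genes in TPM (vertical axis, from 0, its own scale in each panel) in the libraries of MCF10A, MCF10AT1 and MCF10Ca1a (horizontal axis). Points are libraries and bars the mean ± SD (n = 3); EPCAM and ALDH1A3 are highest in MCF10Ca1a, PDPN is seen in MCF10A and stays at 0 to 0.017 TPM in the other lines, and PROM1 and THY1 do not reach 0.04 TPM.

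On the length-corrected TPM scale the order of the marker levels differed between lines. In MCF10A it ran from CD44 (278 TPM) over CD24 (239 TPM), NT5E (217 TPM), ALDH1A3 (65.8 TPM), EPCAM (40.1 TPM) and PDPN (39.9 TPM) to MME (4.66 TPM). There CD44 and CD24, CD24 and NT5E, and EPCAM and PDPN overlapped between libraries, so their order is not resolved. In MCF10AT1 the order was CD44 (333 TPM), NT5E (201 TPM), EPCAM (170 TPM), CD24 (122 TPM), ALDH1A3 (75.6 TPM), MME (1.33 TPM) and ALDH1A1 (0.64 TPM), with no overlap between neighbours. In MCF10Ca1a EPCAM (390 TPM) and ALDH1A3 (363 TPM) had moved up to directly below CD44 (429 TPM), followed by CD24 (147 TPM), NT5E (67.9 TPM), ALDH1A1 (0.91 TPM) and MME (0.59 TPM), again without overlap. CD44 had the highest mean TPM of the 10 in each line. In MCF10Ca1a this was 377 TPM, below EPCAM, without the non-coding transcript CD44-227 described with the CD44 forms, and in CPM ALDH1A3 (773) was above CD44 (541) there.

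**Figure D2:**
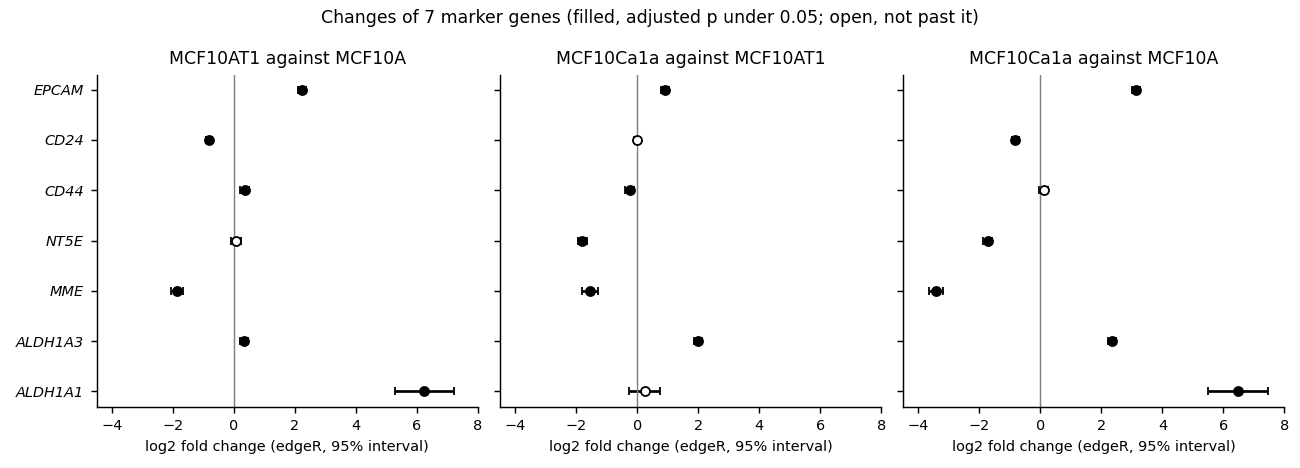
Log2 fold change (horizontal axis) of 7 marker genes (vertical axis) in the 3 comparisons, one per panel, from edgeR's quasi-likelihood test with 95% intervals; filled points passed an adjusted p of 0.05. EPCAM lies to the right of 0 in every panel and MME to the left; CD44 lies close to 0 throughout, and the ALDH1A1 value against MCF10A rests on 2 counts there.

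CD44 (ENSG00000026508.21, chromosome 11, 35138870 to 35232402, plus strand, in GENCODE 29 on GRCh38, which gives all positions here) was abundant in every library. It had 35954, 32171 and 31559 counts in MCF10A, 43734, 42981 and 38643 for MCF10AT1 and 19181, 17945 and 19670 for the shallower MCF10Ca1a libraries. Scaled to depth this was 503 ± 54.5, 642 ± 17.5 and 541 ± 11.7 CPM (SD, n = 3), with all MCF10AT1 libraries above all others and MCF10Ca1a inside the range of MCF10A. From MCF10A to MCF10AT1 it rose by 0.35 on the log2 scale (SE 0.0713, adjusted p 7.23e-04). At the malignant step CD44 fell by 0.25 (SE 0.0714, adjusted p 0.00612) on that scale. Against MCF10A the net change in MCF10Ca1a was 0.11 (95% interval -0.05 to 0.26, adjusted p 0.187), which did not pass, though it did without MCF10A replicate 1 (0.18, adjusted p 0.00424).

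The direction of CD44 at the malignant step depended on the scale. On the deposited length-scaled and scaled counts its log2 change from MCF10AT1 to MCF10Ca1a was 0.07 (adjusted p 0.366) and 0.08 (adjusted p 0.314). On log2(TPM + 1) it was 0.37 (limma adjusted p 0.00986), where the median of all genes itself moved by 0.19, and against MCF10A it then passed at 0.64 (limma adjusted p 3.25e-04). In TPM the values were 323, 277 and 234 in MCF10A, 339, 347 and 313 for MCF10AT1 and 424, 425 and 439 for MCF10Ca1a, so MCF10Ca1a was above all others on that scale. Unlike CPM, TPM divides by the length of the transcripts a gene uses. The rise of CD44 at the first step passed on all count scales and missed the threshold on log2(TPM + 1) (0.27, limma adjusted p 0.0545).

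**Figure D3:**
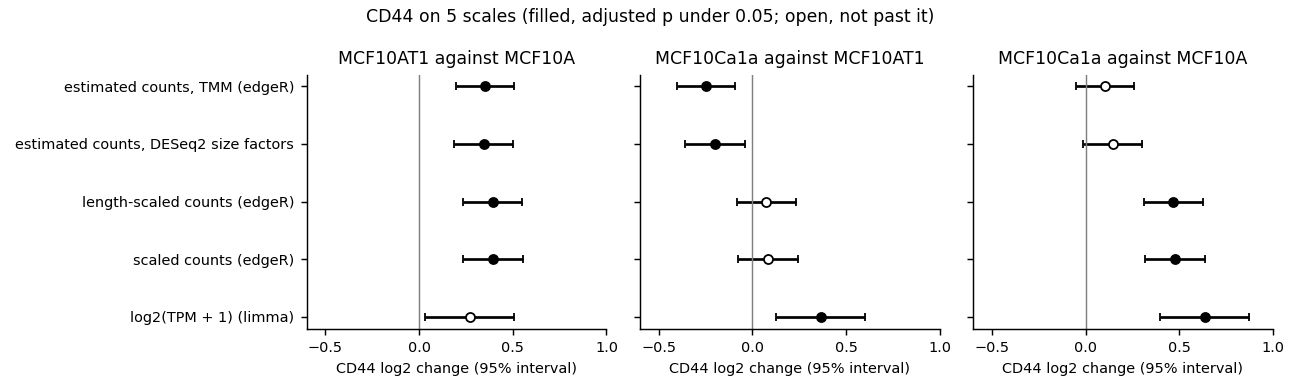
Log2 change of CD44 (horizontal axis, with 95% intervals) in the 3 comparisons, one per panel, on 5 scales of the deposited data (vertical axis); filled points passed an adjusted p of 0.05. In the middle panel the value moves from -0.25 on estimated counts to 0.37 on log2(TPM + 1).

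CD44 carries 9 variant exons, v2 to v10 in the usual numbering, between the constant exons of the standard form, numbered here by their order in CD44-208, the model of GENCODE 29 that holds them all. The standard form is CD44-201 (ENST00000263398), which joins the constant exons directly. CD44-209 (ENST00000433892) holds v8, v9 and v10 and is the form usually called epithelial CD44, or CD44v8-10. The sequences are shown because the results on CD44 turn on the balance between these forms. Each is read 5′ to 3′ on the plus strand of GRCh38 in the GENCODE 29 transcripts, with bases of the variant exons in capitals and 20 bases of each constant exon in lower case. Exon v8 lies at chr11:35208105-35208206, v9 at chr11:35209965-35210054 and v10 at chr11:35211246-35211449.
CD44-201 junction: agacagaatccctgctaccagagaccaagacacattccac
CD44-209 v8: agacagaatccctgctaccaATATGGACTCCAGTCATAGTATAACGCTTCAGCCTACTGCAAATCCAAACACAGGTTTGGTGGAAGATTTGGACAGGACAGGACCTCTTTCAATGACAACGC
CD44-209 v9: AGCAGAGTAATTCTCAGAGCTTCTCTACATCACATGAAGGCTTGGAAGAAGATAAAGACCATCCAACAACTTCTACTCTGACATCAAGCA
CD44-209 v10: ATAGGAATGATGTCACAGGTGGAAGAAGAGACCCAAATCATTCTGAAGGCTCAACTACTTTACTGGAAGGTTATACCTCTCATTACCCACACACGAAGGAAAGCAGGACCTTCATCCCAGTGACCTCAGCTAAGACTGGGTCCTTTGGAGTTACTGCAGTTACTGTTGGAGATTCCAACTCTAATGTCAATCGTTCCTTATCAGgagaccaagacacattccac
The flanking bases are the same in both transcripts. The insert is 396 bases, or 132 codons with a remainder of 0, so the reading frame goes on after it, and the coding sequence is 1479 bases in CD44-209 against 1083 in CD44-201.

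The standard form gave way to the form with v8, v9 and v10 along the series. CD44-201 had 130, 107 and 93.7 TPM in MCF10A, 103, 102 and 101 TPM for MCF10AT1 and 41.9, 41.9 and 41.7 TPM for MCF10Ca1a. CD44-209 had 63.3, 53.4 and 45.0 TPM in MCF10A, 110, 106 and 95.8 TPM for MCF10AT1 and 196, 194 and 197 TPM for MCF10Ca1a. The 3 lines did not overlap for CD44-209, and for CD44-201 MCF10Ca1a lay below both other lines. Per library, the TPM ratio of CD44-209 to CD44-201 was 0.49 ± 0.0105 (SD, n = 3) in MCF10A, 1.02 ± 0.0603 in MCF10AT1 and 4.68 ± 0.0494 in MCF10Ca1a.

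Each transcript was also tested for its share within the gene, as the log2 ratio of its TPM to that of the other transcripts of the gene, in limma over all 43950 transcripts tested. The share of CD44-209 rose by a log2 ratio of 0.92 at the first step (SE 0.113, adjusted p 0.00712) and by 0.88 (SE 0.113, adjusted p 0.00168) in MCF10Ca1a against MCF10AT1. The share of CD44-201 fell by 2.03 (SE 0.118, adjusted p 4.33e-05) at the malignant step. Its fall of 0.56 at the first step passed at an adjusted p of 0.0456, but it passed in no fit with a library left out, 9 in all (adjusted p 0.0606 to 0.145). With transcripts down to 0.1 TPM tested as well, neither first-step change passed (adjusted p 0.0615 for CD44-209 and 0.234 for CD44-201). Of the 29 CD44 transcripts tested, 3 passed in MCF10AT1 against MCF10A (1 higher, 2 lower), beside 4.08% of all transcripts. In MCF10Ca1a 11 passed against MCF10AT1 (5 higher, 6 lower), beside 24.3%, and 18 against MCF10A (9 higher, 9 lower), beside 30.3%.

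**Figure D4:**
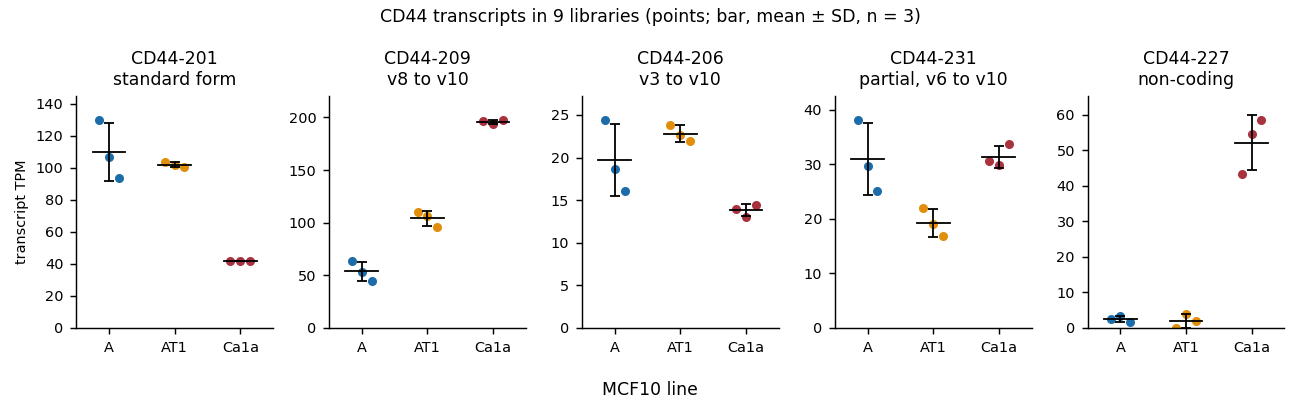
TPM (vertical axis, from 0, its own scale in each panel) of 5 CD44 transcripts in the libraries of the 3 lines (horizontal axis); points are libraries and bars the mean ± SD (n = 3). CD44-209 stands at 194 to 197 TPM in MCF10Ca1a, where CD44-201 is near 42 TPM and the non-coding CD44-227 reaches 43.5 to 58.4 TPM.

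The longer variant forms did not all follow CD44-209. CD44-206, which holds v3 to v10, had 19.7 ± 4.22, 22.8 ± 0.98 and 13.9 ± 0.71 TPM (SD, n = 3) in MCF10A, MCF10AT1 and MCF10Ca1a, and its share fell at the malignant step by a log2 ratio of 1.14 (SE 0.120, adjusted p 7.10e-04). CD44-208, which holds v2 to v10, went from 2.46 and 2.76 TPM to 0.27 TPM, and its share fell by 3.43 (SE 0.355, adjusted p 6.39e-04). CD44-231 (ENST00000531110.6), a partial model with v6 to v10, had 31.0 ± 6.56, 19.3 ± 2.58 and 31.4 ± 2.04 TPM. Its share fell at the first step by 1.02 (SE 0.134, adjusted p 0.00919, or 0.0540 with transcripts down to 0.1 TPM). At the malignant step its change, 0.37 (SE 0.134, adjusted p 0.0896), had the sign of that of CD44-209 and did not pass, though it did on transcript counts (0.75, adjusted p 0.00577).

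A short non-coding transcript of 580 bases, CD44-227 (ENST00000528086.5), which includes v8 and v9, had 2.54 ± 0.79 and 1.99 ± 1.97 TPM in MCF10A and MCF10AT1 and 52.2 ± 7.75 TPM in MCF10Ca1a. It was 12.1% of the gene's TPM in MCF10Ca1a, but only 465, 538 and 623 of the gene's 19181, 17945 and 19670 counts there. Its share rose by a log2 ratio of 5.58 (SE 1.23, adjusted p 0.0162, or 0.0584 with a pseudocount of 0.01 TPM) at the malignant step. This value leans on MCF10AT1 replicate 1, where the transcript is listed at 0 beside 3.94 and 2.03 TPM in the other libraries of that line, and without that library it was 3.94 (SE 0.328, adjusted p 8.79e-04). With the transcript CD44-227 taken out of all 9 libraries, an alternative chosen after seeing the data, the log2 difference of CD44 in TPM at the malignant step was 0.19 in place of 0.37. Relative to the median of all genes in TPM, that is -0.05 in place of 0.13.

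Summed over the 25 coding transcripts, those with variant exons held 51.8% ± 0.60 (SD, n = 3) of the CD44 coding TPM in MCF10A, 61.3% ± 1.99 in MCF10AT1 and 83.8% ± 0.75 in MCF10Ca1a. The standard class held 43.3% ± 0.86, 34.6% ± 1.70 and 12.9% ± 0.28, and the rest was in models that cover neither. The log2 ratio of variant to standard TPM was 0.26 ± 0.0336, 0.83 ± 0.0824 and 2.70 ± 0.0249. It differed by 0.57 at the first step and 1.88 at the second, with each pair of lines at the smallest p that 3 libraries against 3 allow (0.1, exact 2-sided permutation test). Over the 3 lines together the exact permutation p was 0.00357, the smallest that 1680 assignments allow. With only the 8 coding transcripts that span the whole variable region, also chosen after seeing the data, the variant share was 43.4%, 57.3% and 83.5%.

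In percentage points of inclusion, the lines differed most at v8, v9 and v10, the last exons of the variable region, though the low v2 differed more in proportion. In the spanning coding transcripts v8 was included in 43.0% ± 0.45 (SD, n = 3) of the TPM in MCF10A, 56.9% ± 1.18 in MCF10AT1 and 82.0% ± 0.14 in MCF10Ca1a, and v10 in 39.3% ± 0.47, 54.2% ± 1.42 and 80.6% ± 0.47. Exons v3 to v7 were lower in MCF10Ca1a, with v6 in 11.3% ± 0.34, 10.6% ± 0.13 and 5.33% ± 0.24. Exons v4 to v7 had the same values, since of the spanning transcripts only CD44-206 and CD44-208 hold them. CD44-231, the partial model with v6 to v10 at 31.0, 19.3 and 31.4 TPM, does not span the region and is left out. Exon v2 was in 1.28%, 1.15% and 0.10%. These percentages add up whole annotated transcripts and are no direct count of junction reads. The 2 leading models also differ at their 3′ ends, with a last exon of 3274 bases in CD44-201 and 899 in CD44-209, and the uncertainty of assigning reads between them was not tested.

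**Figure D5:**
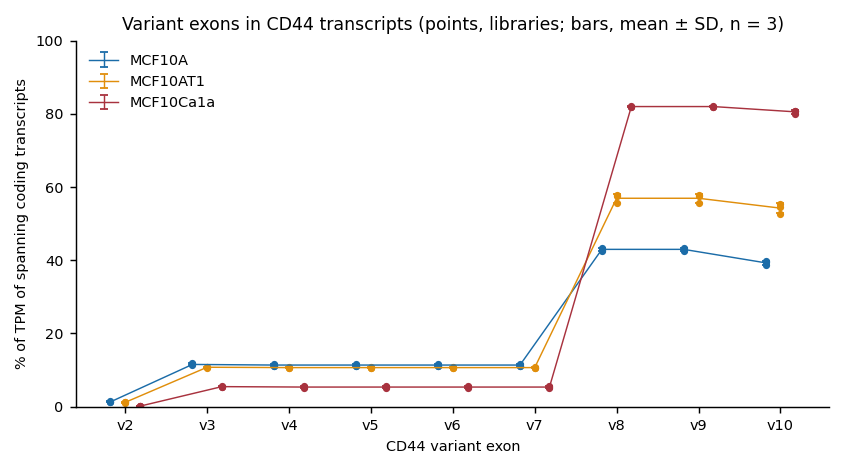
Inclusion of each CD44 variant exon (horizontal axis, v2 to v10) as a percentage of the TPM of the 8 coding transcripts that span the variable region (vertical axis); points are libraries, bars the mean ± SD (n = 3) and lines join the means of a line. From v8 to v10 the lines separate, at 43.0%, 56.9% and 82.0% for v8, while v3 to v7 are lowest in MCF10Ca1a.

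The list of 18 splicing regulators tied to CD44 was read beside this. ESRP1 and ESRP2, epithelial splicing proteins known to favour CD44 variant exons, were present in every line. ESRP1 had 94.3 ± 6.40, 145 ± 6.03 and 119 ± 2.26 CPM (SD, n = 3), rising by 0.62 (adjusted p 5.88e-07) and falling by 0.28 (adjusted p 4.71e-04) at the second step, a fall that did not pass in TPM. ESRP2 had 63.2 ± 2.22, 59.4 ± 1.85 and 83.4 ± 1.39 CPM, with a change of -0.09 (adjusted p 0.124) and then a rise of 0.49 (adjusted p 4.52e-07). The largest rise and fall in MCF10Ca1a against MCF10A were SND1 (0.74, adjusted p 1.40e-06), a co-regulator that also binds RNA, and SRSF3 (-1.84, adjusted p 3.03e-12), an SR splicing factor. In all, 3 rose and 5 fell in MCF10AT1 against MCF10A, 4 rose and 12 fell in MCF10Ca1a against MCF10AT1, and 7 rose and 10 fell in MCF10Ca1a against MCF10A, with medians of -0.07, -0.30 and -0.52. On the log2(TPM + 1) scale the counts were 3 and 6, 7 and 7, and 7 and 10, with medians of -0.20, -0.07 and -0.38.

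Among 23 listed partners of CD44, 17 were tested. HAS2 and HAS3 make hyaluronan, and they moved in opposite directions at both steps. HAS2 rose from 14, 22 and 20 counts in MCF10A to 98, 108 and 101 in MCF10AT1 (adjusted p 4.48e-06) and fell to 8, 2 and 1 in MCF10Ca1a (adjusted p 4.22e-07). HAS3 had 16.7 ± 1.84, 12.6 ± 0.06 and 80.3 ± 0.48 CPM, fell by 0.41 (adjusted p 1.87e-04) at the first step and rose by 2.67 (adjusted p 6.16e-13) at the malignant step. HYAL1, a hyaluronidase, rose by 2.80 (adjusted p 6.22e-09) at the first step and by 2.43 (adjusted p 1.45e-08) in MCF10Ca1a against MCF10A. SRGN, the proteoglycan serglycin, which CD44 can bind, fell by 3.86 (adjusted p 6.58e-10) in that comparison. Of the linkers between CD44 and actin, MSN did not pass in any comparison (-0.11, 0.03 and -0.07, adjusted p 0.28, 0.725 and 0.422), and EZR rose by 0.54 (adjusted p 3.38e-05) and then fell by 0.42 (adjusted p 2.01e-04), a fall that did not pass in TPM. LYVE1, a paralog of CD44, had 0 counts in all 9 libraries, where a count of 0 allows up to 3 counts per library. The list had 9 higher and 5 lower, 4 higher and 9 lower, and 8 higher and 6 lower in the 3 comparisons. Its medians were 0.16, -0.23 and 0.12. In log2(TPM + 1) there were 6 higher and 5 lower, 6 and 6, and 8 and 5, with medians of 0.02, 0.13 and 0.26.

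CD24 (ENSG00000272398.6, chromosome 6, 106969831 to 106975627, minus strand) was highest in MCF10A. Its counts were 16201, 15628 and 16798 in MCF10A, 9223, 9499 and 8404 for MCF10AT1 and 4944, 4807 and 4742 for MCF10Ca1a. In CPM these were 245 ± 6.70, 139 ± 4.02 and 138 ± 4.57 (SD, n = 3), with every MCF10A library above every other and the other lines overlapping. CD24 fell by 0.82 (SE 0.0507, adjusted p 8.79e-09) at the first step, 1.76-fold, and by 0.82 (SE 0.0510, adjusted p 2.37e-09) in MCF10Ca1a against MCF10A. Between MCF10AT1 and MCF10Ca1a the change was -0.01 (95% interval -0.12 to 0.10, adjusted p 0.895), and its sign turned with the scale, reaching 0.27 in log2(TPM + 1) (limma adjusted p 0.00746). CD24 has processed copies in the genome, of which CD24P1 and CD24P2 had 0 counts and CD24P4 0 to 4 counts per library.

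The ratio of CD44 to CD24, per library in TPM, was 1.24, 1.17 and 1.06 in MCF10A, 2.74, 2.74 and 2.72 for MCF10AT1 and 2.95, 2.80 and 3.01 for MCF10Ca1a. All libraries of the derived lines were above those of MCF10A. On the log2 scale the means were 0.21 ± 0.114, 1.45 ± 0.0046 and 1.54 ± 0.0520 (SD, n = 3). The difference was 1.24 at the first step and 0.09 at the second, each at an exact 2-sided permutation p of 0.1, the smallest possible with 3 against 3, and 0.00357 over the 3 lines. With CPM in place of TPM the second difference was -0.24, so only the step from MCF10A to MCF10AT1, and MCF10A against MCF10Ca1a, kept a direction on both scales.

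EPCAM (ENSG00000119888.11, chromosome 2, 47345158 to 47387601, plus strand) rose at each step. It had 1985, 1978 and 2050 counts in MCF10A, 9770, 9729 and 8138 for MCF10AT1 and 9505, 8955 and 9532 for MCF10Ca1a, whose libraries were shallower. In CPM these were 30.3 ± 0.825, 141 ± 8.97 and 267 ± 1.73 (SD, n = 3), and the 3 lines did not overlap. The log2 change was 2.22 (SE 0.0579, adjusted p 1.35e-12), or 4.67-fold, at the first step and 0.92 (SE 0.0548, adjusted p 2.09e-09), or 1.89-fold, at the second. Against MCF10A, MCF10Ca1a was 8.81-fold higher (log2 change 3.14, adjusted p 2.01e-14). The derived lines thus had both more EPCAM and a higher ratio of CD44 to CD24 than MCF10A.

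Among 15 listed partners of EPCAM and CD24, 12 were tested, and more rose than fell in each comparison, with 9 and 2, 8 and 3, and 10 and 1. The medians were 0.67, 0.61 and 1.22 and were positive on the deposited counts, both scaled versions and TPM. Of all genes tested, the background for each list here, 29.8% rose and 31.8% fell, then 38.0% and 40.3%, and 39.0% and 41.9%. PSEN2, a subunit of the protease that releases the EPCAM tail, was the list's largest fall in MCF10Ca1a against MCF10A, at -1.38 (adjusted p 1.21e-10). PROM2, the paralog of PROM1, had 6.96 ± 0.843, 116 ± 3.13 and 50.7 ± 2.36 CPM. It rose by 4.07 (adjusted p 5.05e-14) and then fell by 1.20 (adjusted p 9.92e-10).

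PROM1 itself (ENSG00000007062.12, chromosome 4, 15963076 to 16084378, minus strand), a pentaspan membrane protein and widely used stem cell marker, had 1, 0 and 0 counts in MCF10A, 2, 1 and 1 for MCF10AT1 and 2, 0 and 1 for MCF10Ca1a. All are at or under the 3 counts per library that were taken as the floor, so no fold is given and a difference was not detectable at this depth. Of the prominins measured, its paralog PROM2 was the one above the floor.

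ALDH1A3 (ENSG00000184254.17, chromosome 15, 100877714 to 100916626, plus strand) was the main gene of the ALDH1A group in every line. It had 10603, 9833 and 9813 counts in MCF10A, 13244, 12837 and 11668 for MCF10AT1 and 27550, 25933 and 27580 for MCF10Ca1a. In CPM these were 153 ± 12.4, 193 ± 5.31 and 773 ± 4.39 (SD, n = 3), without overlap between lines. It rose by 2.00 (SE 0.0636, adjusted p 3.68e-12), or 4.0-fold, at the malignant step and was 5.06-fold higher in MCF10Ca1a than in MCF10A (log2 change 2.34, adjusted p 5.74e-13). The first step, 0.34 (SE 0.0617, adjusted p 2.83e-04), did not pass in log2(TPM + 1) (0.21, limma adjusted p 0.091). Its antisense gene ALDH1A3-AS1 had 134 to 196 counts in MCF10A and MCF10AT1 and 10 to 21 in MCF10Ca1a, and whether the quantification used the strand is not given in the sources used here.

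ALDH1A1 (ENSG00000165092.13, chromosome 9, 72900662 to 73080442, minus strand) was nearly absent from MCF10A, with 1, 0 and 1 counts. MCF10AT1 libraries gave 70, 60 and 52 counts, and those of MCF10Ca1a 51, 34 and 31. The ratio of summed counts, scaled to depth, was 92.7 (95% interval 25.3 to 771, counting error only) in MCF10AT1 over MCF10A and 110 (29.7 to 918) in MCF10Ca1a over MCF10A. Both passed (adjusted p 3.92e-08 and 8.99e-09). Between MCF10AT1 and MCF10Ca1a the change was 0.24 (95% interval -0.26 to 0.75, adjusted p 0.349), and it passed on log2(TPM + 0.1) (0.42, limma adjusted p 0.0486). Even so, ALDH1A1 stood at 0.64 ± 0.0818 and 0.91 ± 0.246 TPM (SD, n = 3) in the derived lines, where ALDH1A3 stood at 75.6 ± 3.04 and 363 ± 0.970 TPM.

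Of the 17 other aldehyde dehydrogenase genes 16 were tested, with 5 higher and 6 lower, 8 and 6, and 8 and 6 in the 3 comparisons, and medians of -0.19, 0.23 and 0.42. In log2(TPM + 1), where 12 were tested, there were 2 higher and 4 lower, 6 and 5, and 6 and 5, with medians of -0.17, 0.09 and 0.05. ALDH1L2, the mitochondrial enzyme of folate metabolism, fell from 97.0 ± 8.09 CPM in MCF10A over 18.2 ± 0.697 in MCF10AT1 to 3, 5 and 5 counts in MCF10Ca1a, a log2 change of -9.59 (adjusted p 1.73e-15) over both steps. ALDH2, the mitochondrial acetaldehyde enzyme, was the largest rise at very low counts, with 0, 10 and 2 counts in MCF10A, 0 in all MCF10AT1 libraries and 16, 16 and 17 in MCF10Ca1a.

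The retinoid genes around these enzymes, 13 tested of 20, had 5 higher and 4 lower, 7 and 5, and 8 and 4, with medians of 0.12, 0.44 and 0.23. In log2(TPM + 1), where 12 were tested, there were 3 and 4, 8 and 3, and 8 and 3, with medians of -0.02, 0.53 and 0.35. DHRS9, which forms retinaldehyde from retinol and so supplies the substrate of ALDH1A3, rose at both steps, by 4.08 (adjusted p 1.29e-10) and 1.35 (adjusted p 7.56e-08), from 0.253 ± 0.0898 to 10.9 ± 0.662 CPM (SD, n = 3). CRABP2, which carries retinoic acid to its nuclear receptors, fell at both, by 1.95 (adjusted p 1.13e-09) and 0.88 (adjusted p 2.14e-05), from 8.84 ± 0.501 to 1.24 ± 0.146 CPM. RBP4, the plasma carrier of retinol, went from 11, 15 and 16 counts in MCF10A to 0 in MCF10Ca1a (adjusted p 2.85e-04). RARB, a receptor gene that retinoic acid induces in many cells, had at most 2 counts in any library.

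NT5E (ENSG00000135318.12, chromosome 6, 85449584 to 85495791, plus strand) was high in MCF10A and MCF10AT1 and lower in MCF10Ca1a. It had 29922, 26995 and 26915 counts in MCF10A, 30319, 30385 and 25890 for MCF10AT1 and 4547, 4325 and 4549 for MCF10Ca1a. In CPM these were 423 ± 40.8, 443 ± 22.9 and 128 ± 0.799 (SD, n = 3), with the first 2 lines overlapping and MCF10Ca1a below both. The change was 0.07 (95% interval -0.08 to 0.22, adjusted p 0.412) at the first step and -1.79 (SE 0.0714, adjusted p 3.23e-11), 3.46-fold lower, at the second. Without MCF10A replicate 1, the highest of its line, the first step passed at 0.14 (adjusted p 0.0223), and in log2(TPM + 1) it was -0.10 (limma adjusted p 0.452), so its direction is not settled.

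NT5E takes AMP that ENTPD1 (CD39) makes from ATP and ADP, and its product acts on adenosine receptors. ENTPD1 had at most 3 counts in any library. ADORA2B, the receptor of lower affinity, had 38.3 ± 1.02, 47.4 ± 2.50 and 31.1 ± 1.19 CPM (SD, n = 3), rising by 0.31 (adjusted p 1.87e-04) and falling by 0.61 (adjusted p 1.76e-07), of which the rise did not pass in TPM. ADORA2A was barely seen, at 0 or 1 count in MCF10A and MCF10AT1, and had 17, 11 and 12 counts in MCF10Ca1a (adjusted p 1.62e-06 against MCF10A). ENTPD3, another ectonucleotidase, fell from 13, 18 and 29 counts in MCF10A to 6, 1 and 8 in MCF10AT1 (adjusted p 0.0074) and 0 in each MCF10Ca1a library (adjusted p 2.83e-04 against MCF10A). Of the 24 listed genes of this pathway 16 were tested, with 7 higher and 7 lower, 6 and 9, and 5 and 9. The medians were 0.20 and -0.34 against MCF10A, and at the malignant step -0.51, or -0.14 with genes at the floor set to their bound. In log2(TPM + 1), where 11 were tested, there were 4 higher and 4 lower, 4 and 5, and 4 and 5, with medians of 0.00, -0.13 and -0.17.

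MME (ENSG00000196549.13, chromosome 3, 155024124 to 155183729, plus strand), the membrane peptidase neprilysin and a marker of myoepithelial cells, fell at both steps. It had 940, 935 and 987 counts in MCF10A, 279, 264 and 225 for MCF10AT1 and 39, 49 and 53 for MCF10Ca1a. In CPM these were 14.4 ± 0.261, 3.93 ± 0.283 and 1.35 ± 0.224 (SD, n = 3), without overlap between lines. The log2 change was -1.87 (SE 0.0903, adjusted p 6.91e-10) at the first step and -1.55 (SE 0.122, adjusted p 3.94e-08) at the second, and MCF10Ca1a was 10.7-fold lower than MCF10A. Among 10 other surface peptidase genes 5 were tested. ANPEP (CD13), another marker aminopeptidase, fell by 2.47 (adjusted p 1.97e-11) in MCF10Ca1a against MCF10A, and ECE1, which processes endothelin, rose by 0.80 (adjusted p 1.83e-06). The list had 1 higher and 1 lower there (median -0.02), but 3 and 2 on length-scaled counts (median 0.56), and 2 and 2 of 4 tested on scaled counts (median -0.13) and in log2(TPM + 1) (median 0.06). In the other comparisons that list had 2 higher and 2 lower (median -0.18), and 2 higher and 3 lower, and the sign of its median at the malignant step, -0.80, turned to 0.17 in log2(TPM + 1) and 0.36 on length-scaled counts.

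PDPN (ENSG00000162493.17, chromosome 1, 13583465 to 13617957, plus strand), the mucin-like protein podoplanin, found on basal mammary cells and lymphatic endothelium, had 4601, 4327 and 4282 counts in MCF10A, or 66.6 ± 5.20 CPM (SD, n = 3). In MCF10AT1 it had 0 counts in each library and in MCF10Ca1a 1, 0 and 0. It was at least 1443-fold lower in MCF10AT1 (adjusted p 2.05e-13), against a floor of 3 counts per library. For MCF10A over MCF10Ca1a the ratio of summed counts was 6974 (95% interval 1252 to 275492, counting error only, adjusted p 1.74e-13). This ratio rests on 1 count, and the fitted log2 change ran from -14.9 to -12.0 with a library left out. No fold is given between the derived lines, which are both at the floor. In MCF10A, the line in which it was above the floor, PDPN stood at a level close to that of EPCAM there (39.9 ± 5.39 and 40.1 ± 2.90 TPM).

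THY1 (ENSG00000154096.14, chromosome 11, 119417378 to 119424985, minus strand), a GPI-anchored protein of fibroblasts and some basal cells, had 1 count in MCF10AT1 replicate 3 and 0 in the other 8 libraries. Counts of 0 at these depths allow up to 3 counts per library, or 0.0468 CPM in MCF10A replicate 1. All 29 listed genes of anchor synthesis and remodelling were tested, with 7 higher and 12 lower, 9 and 12, and 9 and 14, and medians of -0.03, -0.13 and -0.13. The counts in log2(TPM + 1) were 5 and 13, 14 and 10, and 11 and 11, with medians of -0.18, 0.17 and -0.09. PGAP3, which remodels the anchor lipid, rose by 1.59 (adjusted p 3.60e-10) and PIGZ, a mannosyltransferase of the pathway, fell by 3.03 (adjusted p 3.14e-08) in MCF10Ca1a against MCF10A.

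The markers were set beside wider lists of mammary identity, which hold some of them. Of 14 luminal markers 10 were tested, and 8 rose and 1, CD24, fell in MCF10AT1 against MCF10A, with a median of 1.34 (0.50 in log2(TPM + 1)). In MCF10Ca1a against MCF10AT1 4 rose and 3 fell (median 0.09), and against MCF10A 7 rose and 2 fell (median 1.57). In log2(TPM + 1) the first of these was 7 higher and 2 lower (median 0.36). KRT19, a keratin of luminal cells, rose by 6.98 (adjusted p 1.08e-11) in MCF10Ca1a against MCF10A, while MUC1, a luminal mucin, fell by 4.80 (adjusted p 6.96e-14). Of 13 basal and myoepithelial markers 11 were tested, with 6 higher and 5 lower at the first step (median 0.29), but 3 higher and 5 lower of 10 tested in log2(TPM + 1) (median -0.24). At the second 2 were higher and 8 lower (median -1.34, or -0.71 in log2(TPM + 1)), as in MCF10Ca1a against MCF10A (median -2.15). KRT14, a basal keratin, went from 316 ± 28.9 over 65.7 ± 2.55 to 6.26 ± 0.467 CPM (SD, n = 3), falling at both steps as MME did. KRT17 rose by 1.34 (adjusted p 2.22e-10) over both steps, so the basal markers did not all fall.

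Of 30 regulators of mammary stem and progenitor cells 20 were tested, with 10 higher and 7 lower, 7 and 11, and 7 and 10, and medians of 0.19, -0.30 and -0.14. With log2(TPM + 1) 18 were tested, with 6 higher and 7 lower, 9 and 8, and 7 and 7, and medians of 0.07, 0.07 and 0.01. SOX9, a factor of luminal progenitors, had 7.19 ± 0.673, 117 ± 2.29 and 227 ± 4.99 CPM (SD, n = 3) and rose at both steps, by 4.02 (adjusted p 1.89e-14) and 0.96 (adjusted p 1.78e-09), as EPCAM did. TWIST2, a factor of mesenchymal transition, had 17.6 ± 1.22 and 13.8 ± 0.213 CPM and then 7, 7 and 8 counts in MCF10Ca1a, a change of -6.37 (adjusted p 3.20e-14) against MCF10A.

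For each tested marker, the genes with the most similar profile were found as the smallest root mean square difference of centred log2(CPM + 0.5) over the 9 libraries, among 10672 genes. With 3 lines, such likeness follows mainly the 3 line means, and it is given as a description. CD44 was closest to PTTG1IP (0.0236) and SCNN1A (0.0283), both with their highest mean in MCF10AT1. CD24 was closest to NCEH1 (0.0493) and KLHL20 (0.0511), EPCAM to HCG11 (0.125) and MACC1 (0.154), and ALDH1A3 to OTUB2 (0.0559) and P4HA1 (0.0606). For NT5E the nearest were FKBP5 (0.0393) and SSRP1 (0.0393), and for MME SH2D2A (0.124) and SGPP2 (0.128). The low ALDH1A1 was nearest to WIPI1 (0.136) and LPIN1 (0.144). PDPN had no close match, with SOX7 (0.477) and THBD (0.517) the nearest. Both had their highest mean in MCF10A, SOX7 going from 71.5 to 0.242 and 0.707 CPM and THBD from 82.5 to 0.876 and 0.228 CPM.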

How the data were processed

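Polyadenylated RNA of the 3 lines was sequenced from stranded libraries, 3 per line, per the labels. The authors deposited estimated counts per gene, versions named length-scaled and scaled, and TPM per gene and per transcript. The submitters' processing notes name Salmon and hg38, and the version and annotation are not given in the sources used here. Gene positions and transcript models came from GENCODE 29 on GRCh38, matched by unversioned identifiers, and all 38 CD44 transcripts matched.

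Estimated counts, as deposited, were rounded, filtered with filterByExpr by line (minimum count 10, total 15) and fitted with edgeR's quasi-likelihood test (edgeR 4.0.16, R 4.3.3, TMM), all 9 libraries in 1 fit without a replicate block, with Benjamini-Hochberg adjustment over 17910 genes at 0.05. CPM uses TMM-scaled totals. Transcript shares were tested with limma 3.58.1 on log2 of the TPM of a transcript over that of the rest of its gene (pseudocount 0.1), for transcripts with a line mean of at least 1 TPM in genes with 2 or more. The CD44 to CD24 and variant to standard ratios, of deposited TPM, used exact 2-sided permutation tests over libraries. A count of at most 3 in each library of a line was its floor, and floors and counting intervals cover counting error only. All 3 fits (edgeR, DESeq2, limma) were first run on simulated data.

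Replicate numbers were not used as pairs. Alternatives were DESeq2 1.42.0 and its size factors, no filter, the length-scaled and scaled counts, limma on log2(TPM + 1) and log2(TPM + 0.1), the replicate block, only the lines compared, counts thinned to 32.9 M, and each library left out in turn. The members, lists, tests and alternatives were chosen with earlier results of these data known. The text names every member, the largest rise and fall of each list in MCF10Ca1a against MCF10A (adjusted p under 0.05, at least 10 counts in the higher line), genes set by role, the 2 genes nearest each member and CD44 transcripts of at least 1 TPM. A list gene chosen in this way is not reported here. The marker genes named in the check of cell types, CD24 pseudogenes and ALDH1A3-AS1 were chosen after their values were seen.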

Additional observations from a re-analysis of the deposited data

How the results depend on the processing

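With no single library left out, 229 single results held their direction and side of the threshold under an alternative, 15 changed sign, 6 gained and 6 lost a call; with 1 library left out, 203 held, 2 changed sign and 2 gained a call. The CD44 change in MCF10Ca1a against MCF10AT1, -0.25, turned to 0.074 and 0.084 on length-scaled and scaled counts and 0.37 in TPM. That of CD24, -0.01, turned to 0.039 with DESeq2's size factors and its Wald test, 0.0069 with the 2 lines alone, 0.015 with thinned counts and 0.27 in TPM, and ran from -0.041 to 0.012 with a library left out (0.0014 without MCF10AT1 replicate 2). NT5E in MCF10AT1 against MCF10A turned to -0.097 in TPM, and the CD44 to CD24 ratio of MCF10Ca1a against MCF10AT1 to -0.24 in CPM. With a filter of 0.1 TPM, 0 CD44 transcripts passed in MCF10AT1 against MCF10A. The cause was not tested.

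Replicate numbers did not pair the libraries: of 9 correlations of deviations between same-numbered libraries (-0.14 to 0.16), 1 was over 0.1. With the replicate block 10846, 13917 and 14397 genes, 7, 5 and 7 markers and 2, 11 and 16 CD44 transcripts passed, and the first-step share of CD44-201 did not (adjusted p 0.129). The ratio of CD44 to CD24 changed by 1.18 to 1.29, 0.073 to 0.12 and 1.27 to 1.39 with a library left out. Depth limits PROM1, THY1 and ALDH1A1 in MCF10A, all within 3 counts per library.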

Other observations

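ALDH1A3-AS1, the antisense neighbour of ALDH1A3, moved against its partner at the malignant step, and it was chosen after its values were seen. It had 161, 157 and 196 counts in MCF10A, 134, 139 and 136 for MCF10AT1 and 10, 10 and 21 for MCF10Ca1a. Its log2 change was -0.30 (edgeR adjusted p 0.118) at the first step and -2.42 (adjusted p 1.95e-07) at the second, where ALDH1A3 rose by 2.00.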
